A study of Mus musculus with 6 samples.

Results

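A set of 10 genes by which cardiac fibroblasts are commonly recognized was followed across the LV samples of *Lztr1* R409C/+ and WT mice. They were *Pdgfra*, *Ddr2*, *Tcf21*, *Dpt*, *Pcolce*, *Clec3b*, *Pi16*, *Dpep1*, *Gsn*, and *Vim*, chosen by name and joined to their counts by gene identifier. All 10 were found among the 56923 genes listed, and all 10 were among the 17212 genes that passed the filter on low counts and were tested. The comparison asked how the heterozygous mutation affects gene expression in the heart. The 3 mutant mice carried 1 *Lztr1* allele with the p.R409C exchange, a knock-in made with CRISPR/Cas9 and backcrossed to C57BL/6J. The sample labels call them only mutant, and the allele was taken from the description of the study. The 3 WT mice carried no edited allele. All 6 mice were 12 weeks of age and were perfused with PBS, and RNA of each mouse went into a library of its own. The labels name the tissue as heart, and the study describes it as LV.

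Fibroblasts make the collagen network between cardiomyocytes and keep up the interstitium of the ventricle. Most of them descend from the epicardium, a step that needs the basic helix-loop-helix factor TCF21, and they carry the receptor tyrosine kinases PDGFRA, which binds PDGF ligands, and DDR2, which binds fibrillar collagen. LZTR1 is a substrate adaptor of a ubiquitin ligase that removes RAS family proteins, and receptors such as PDGFRA signal through RAS. *Vim* and *Gsn* are high in fibroblasts but are not restricted to them, since endothelial cells and leukocytes also contain vimentin and cardiomyocytes also contain gelsolin.

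Total counts lay between 66130887 and 72641124 per mouse, and no pair of libraries had the same count in more than 3.35% of the genes with counts. Values are given as CPM, counts scaled to a common library size with TMM factors, and in the order of the replicate numbers 1, 2, and 3. On this scale 3 counts were worth 0.0317 to 0.0541 CPM, which reflects counting error alone. The lowest count of any of the 10 genes in any mouse was 225, for *Tcf21* in WT replicate 2. In 2 libraries, the share of mitochondrially encoded counts stood apart. It was 13.8% in WT replicate 3 and 45.4% in *Lztr1* R409C/+ replicate 1, against 29.7% to 37.3% in the other 4 mice. Values without these libraries are given for the genes that moved most without them. *Lztr1* itself, whose transcript a point mutation need not remove, was at 24.2, 24.2, and 22.2 CPM in WT and at 23.9, 27.9, and 25.3 CPM in *Lztr1* R409C/+ mice. The count table does not show the mutated base, so this does not check the genotype labels. The 8 cardiomyocyte markers summed to 30241 to 43728 CPM per mouse, and no single gene among the 6 adipocyte markers had more than 12 counts in any mouse.

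Upstream sequence is shown for 5 of the genes, the 3 whose first 250 bases upstream hold the letters CAGCTG and 2 that lack them. CAGCTG is an E-box, the kind of site that basic helix-loop-helix factors such as TCF21 and its E protein partners bind. The windows end at the base before the start of the Ensembl canonical transcript in GENCODE M39 and were read from GRCm39, 5′ to 3′ on the strand of the gene. Capitals mark the CAGCTG letters, which read the same on both strands.
Dpt, chr1:164623937-164624186, plus strand: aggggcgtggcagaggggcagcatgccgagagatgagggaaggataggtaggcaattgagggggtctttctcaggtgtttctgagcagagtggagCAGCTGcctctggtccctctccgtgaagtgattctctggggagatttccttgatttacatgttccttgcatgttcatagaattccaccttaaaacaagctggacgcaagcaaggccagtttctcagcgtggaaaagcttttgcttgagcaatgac
Gsn, chr2:35146142-35146391, plus strand: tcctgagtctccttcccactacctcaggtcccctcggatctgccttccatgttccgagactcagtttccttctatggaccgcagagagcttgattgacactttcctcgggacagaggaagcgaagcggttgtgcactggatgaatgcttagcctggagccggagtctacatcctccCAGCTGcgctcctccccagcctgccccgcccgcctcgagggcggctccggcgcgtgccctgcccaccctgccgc
Pcolce, chr5:137609750-137609999, minus strand: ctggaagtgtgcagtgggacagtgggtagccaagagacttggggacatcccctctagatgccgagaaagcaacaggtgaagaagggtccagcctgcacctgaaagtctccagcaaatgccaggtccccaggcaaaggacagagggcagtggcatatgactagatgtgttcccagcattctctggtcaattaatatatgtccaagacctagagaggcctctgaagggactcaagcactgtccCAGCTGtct
Tcf21, chr10:22696074-22696323, minus strand: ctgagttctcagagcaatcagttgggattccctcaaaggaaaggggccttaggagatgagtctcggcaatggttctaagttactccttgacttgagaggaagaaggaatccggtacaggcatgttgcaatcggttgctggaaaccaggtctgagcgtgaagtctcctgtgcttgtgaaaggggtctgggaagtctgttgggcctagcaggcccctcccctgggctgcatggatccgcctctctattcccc
Clec3b, chr9:122979675-122979924, plus strand: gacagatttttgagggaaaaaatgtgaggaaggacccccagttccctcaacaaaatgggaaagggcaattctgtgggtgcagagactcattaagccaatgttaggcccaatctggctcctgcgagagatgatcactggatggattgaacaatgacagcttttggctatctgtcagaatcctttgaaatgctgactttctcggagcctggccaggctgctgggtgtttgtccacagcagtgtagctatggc
The E-box lay 155 to 150 bases before the start in *Dpt*, 74 to 69 bases before it in *Gsn*, and 9 to 4 bases before it in *Pcolce*. These 3 of 10 genes compare with 11.4% of the 13966 tested protein-coding genes, whose windows of the same length were searched in the same way. Further letters searched on both strands were TGANTCA, the AP-1 site, found in 0 of the 10 windows and 4.6% of all, and TATAAA, the TATA box, found in 0 and 7.54%. GGAATG, the TEAD site, was in 1 of the 10, *Dpep1*, which held it 2 times, and in 11.7% of all. A match describes the letters and not binding. Of the 3 genes with the E-box, *Gsn* and *Pcolce* were both lowest in *Lztr1* R409C/+ replicate 1 and highest in replicate 3. *Dpt* was highest in *Lztr1* R409C/+ replicate 1. A link between the E-box and these levels was not tested.

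The 10 genes covered a wide range of levels. Per kilobase of exon, levels of different genes can be compared roughly, since the length counts every annotated exon, whether used or not. The error from this was not measured. On this scale *Gsn* was at 65.2 ± 9.79 CPM per kb in WT mice (SD, n = 3) and *Vim* at 39.2 ± 3.06. At these levels *Gsn* equalled or exceeded 98.4% and *Vim* 97.2% of the tested genes. A middle group followed with *Dpt* at 8.35 ± 1.92, *Dpep1* at 8.19 ± 0.595, *Clec3b* at 8.12 ± 1.25, *Pi16* at 6.55 ± 1.55, and *Pcolce* at 6.28 ± 0.269 CPM per kb. Each gene of this group overlapped the next in the ranges of the 3 WT mice, so their order is not resolved. The receptor genes *Ddr2* (3.13 ± 0.357) and *Pdgfra* (3.12 ± 0.330) overlapped each other and lay below *Pcolce* without overlap. The transcription factor gene *Tcf21* was lowest at 1.24 ± 0.269 CPM per kb, below *Pdgfra* in every WT mouse and equal to or above 47.7% of the tested genes. *Gsn* and *Vim* did not overlap each other, nor did *Vim* and *Dpt*. In bulk tissue, fewer cells of a type and less RNA per cell cannot be told apart.

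**Figure D1:**
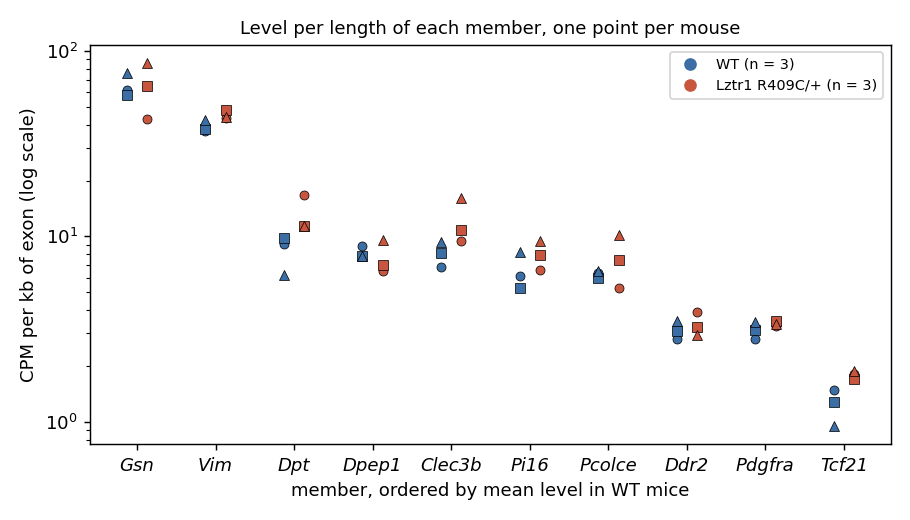
The level of each gene per kilobase of exon (CPM per kb, log scale) is plotted for each mouse, with WT in blue and *Lztr1* R409C/+ in red (n = 3 each) and the replicate number given by the shape of the point. From left to right, mean WT levels fall from 65.2 CPM per kb for *Gsn* to 1.24 CPM per kb for *Tcf21*, and 5 genes from *Dpt* to *Pcolce* lie close together.

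None of the 10 genes passed an adjusted p of 0.05 between the genotypes in edgeR's quasi-likelihood test, where 0.0407% of all tested genes (7 of 17212) did. Their adjusted p-values lay between 0.411 and 0.991, and DESeq2's Wald test and edgeR's exact test also called 0 of them, where they called 158 and 140 of the 17212 tested genes. At an unadjusted p under 0.05, *Dpt*, *Clec3b*, and *Tcf21* were higher in *Lztr1* R409C/+ mice (3 of 10, against 5.77% of all tested genes), and 0 of 10 were lower (2.86% of all). In *Dpt*, *Clec3b*, *Tcf21*, and *Vim*, every *Lztr1* R409C/+ mouse lay above every WT mouse (4 of 10, against 8.3% of all tested genes), and no gene showed the opposite (7.23% of all). The log2 fold change of *Lztr1* R409C/+ over WT was above 0 in 8 genes (51.4% of all) and below 0 in *Gsn* and *Dpep1*. Its median over the 10 genes was 0.24, and over all tested genes it was 0.012. The 10 genes were chosen with earlier results of these data known, so their counts are description only. These counts changed with the libraries that stood apart. Without both of them, *Pi16*, *Pcolce*, *Clec3b*, and *Vim* had an unadjusted p under 0.05 (5.92% of all tested genes were higher at this threshold), *Dpt* and *Tcf21* did not, and 8 genes did not overlap, where 21.2% of all tested genes were higher without overlap among the 4 remaining mice. The median over the 10 genes was then 0.32, and it was 0.16 without WT replicate 2.

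**Figure D2:**
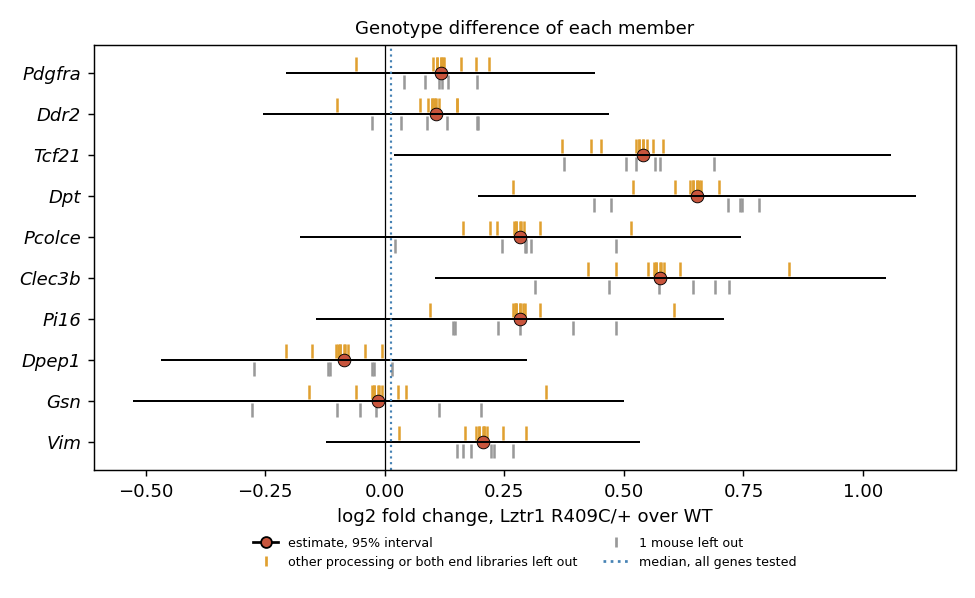
Points give the log2 fold change of *Lztr1* R409C/+ over WT mice for each gene and bars its 95% interval (n = 3 per genotype), with grey ticks for fits without 1 mouse and orange ticks for other processing or without both libraries that stood apart. The intervals of *Dpt* (0.19 to 1.11), *Clec3b* (0.10 to 1.05), and *Tcf21* (0.020 to 1.06) lie above 0, and those of the other 7 genes include 0.

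Both receptor genes overlapped between the genotypes. *Pdgfra* (ENSMUSG00000029231.16, chr5:75311994-75358876), the PDGF receptor used to label quiescent fibroblasts, was at 34.2, 38.5, and 42.4 CPM in the WT mice. The mutant mice were at 40.2, 43.1, and 41.5 CPM. WT replicates 1 and 2 lay below the mutant mice, and WT replicate 3 lay within their range. The log2 fold change was 0.12 (SE 0.15, 95% interval -0.21 to 0.44, adjusted p = 0.864), so a difference of more than 0.44 lay outside the interval. Without both libraries that stood apart, it was 0.22 (unadjusted p = 0.157), and the 4 remaining mice did not overlap. It was 0.19 without WT replicate 3, again without overlap, and 0.041 without WT replicate 1. *Ddr2* (ENSMUSG00000026674.10, chr1:169799876-169938331), the collagen receptor, was at 26.0, 28.5, and 32.6 CPM in WT and at 36.5, 29.96, and 27.4 CPM in *Lztr1* R409C/+ mice. Its highest value came from *Lztr1* R409C/+ replicate 1, and the other mutant mice lay within the WT range. The log2 fold change was 0.11 (SE 0.17, 95% interval -0.26 to 0.47, adjusted p = 0.899), and it was -0.027 without *Lztr1* R409C/+ replicate 1. A lncRNA on the opposite strand of *Ddr2*, 3110045C21Rik, had 18 to 41 counts per mouse, against at least 1721 for *Ddr2*. Among 14 genes for the PDGF ligands, the related receptors PDGFRB and DDR1, and their adaptors, 6 were above and 8 below 0. At an unadjusted p under 0.05, 0 were higher (5.77% of all) and 0 lower (2.86% of all). The median log2 fold change was -0.021, and it was 0.020 without WT replicate 3 and -0.10 without *Lztr1* R409C/+ replicate 2. The smallest p-values of this list belonged to the adaptor *Crkl*, with a log2 fold change of -0.31 (unadjusted p = 0.102), and the ligand *Pdgfa*, with -0.33 (unadjusted p = 0.111), both from edgeR's quasi-likelihood test.

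*Tcf21* (ENSMUSG00000045680.9, chr10:22692803-22696073), the epicardial and fibroblast transcription factor, was at 4.04, 3.50, and 2.59 CPM in WT and at 4.94, 4.62, and 5.13 CPM in *Lztr1* R409C/+ mice. The mutant mice lay close together, the WT mice spread more widely, and the groups did not overlap. The means were 3.37 ± 0.735 and 4.90 ± 0.262 CPM (SD, n = 3), with a log2 fold change of 0.54 (SE 0.24, unadjusted p = 0.0429, adjusted p = 0.565). A 2-sided exact permutation test of the 3 mice against 3 gave p = 0.1, the smallest it allows. Without WT replicate 3, the lowest mouse, the log2 fold change was 0.38 (unadjusted p = 0.133). Without both libraries that stood apart, it was 0.37 (unadjusted p = 0.156), and the remaining mice did not overlap. The unadjusted p of *Tcf21* in edgeR's quasi-likelihood test was 0.0309 without WT replicate 1 and 0.0636 to 0.133 without any other single mouse. The groups did not overlap in any of these fits. A lncRNA annotated over the whole gene on the opposite strand, Gm10824, had 0 to 27 counts per mouse, against 225 to 372 for *Tcf21*. Of 18 tested genes for the E proteins and other mesenchymal or epicardial factors, 11 were above (51.4% of all) and 7 below 0. At an unadjusted p under 0.05, 0 were higher (5.77% of all) and 0 lower (2.86% of all). The median log2 fold change of this list was 0.060, and it was -0.092 without WT replicate 3. The smallest p-values of this list were those of *Tbx20*, a factor of cardiomyocytes and the endocardium, at -0.36 (unadjusted p = 0.0534), and of the E protein gene *Tcf3*, at 0.27 (unadjusted p = 0.197).

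The 2 largest log2 fold changes of the 10, in *Dpt* and *Clec3b*, were in genes for secreted proteins. *Dpt* (ENSMUSG00000026574.6, chr1:164624187-164654544) encodes dermatopontin, a matrix protein that binds decorin and collagen. It was at 40.5, 43.7, and 27.5 CPM in WT and at 74.3, 50.6, and 50.7 CPM in *Lztr1* R409C/+ mice. *Lztr1* R409C/+ replicate 1 was far above all others, WT replicate 3 was far below, and the groups did not overlap. The means were 37.2 ± 8.54 and 58.6 ± 13.7 CPM (SD, n = 3), and the log2 fold change was 0.65 (SE 0.21, unadjusted p = 0.00906, adjusted p = 0.411), the smallest p among the 10 genes. The extreme values came from the libraries with the lowest and highest mitochondrial shares. The log2 fold change of *Dpt* was 0.44 (unadjusted p = 0.0532) without *Lztr1* R409C/+ replicate 1 and 0.27 (unadjusted p = 0.0788) without both libraries, and the remaining mice did not overlap in either case. The part of the mitochondrial share in this result was not tested. The lncRNA Gm32652, which spans *Dpt* on the opposite strand, had 0 counts in all 6 mice.

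*Clec3b* (ENSMUSG00000025784.6, chr9:122979925-122987055) encodes tetranectin, a secreted lectin-like protein that binds plasminogen. It was at 11.2, 13.3, and 15.32 CPM in WT and at 15.36, 17.7, and 26.4 CPM in *Lztr1* R409C/+ mice. The groups were separated only by the small step from WT replicate 3 to *Lztr1* R409C/+ replicate 1, and *Lztr1* R409C/+ replicate 3 stood well above the rest. The means were 13.3 ± 2.04 and 19.8 ± 5.82 CPM (SD, n = 3), and the log2 fold change was 0.58 (SE 0.22, unadjusted p = 0.0208, adjusted p = 0.498). It was 0.31 (unadjusted p = 0.129) without *Lztr1* R409C/+ replicate 3, 0.47 (unadjusted p = 0.0846) without WT replicate 1, and 0.84 (unadjusted p = 0.00554) without both libraries that stood apart.

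*Pi16* (ENSMUSG00000024011.18, chr17:29536654-29549567), a peptidase inhibitor that marks a perivascular or adventitial fibroblast state, was at 38.98, 33.4, and 52.6 CPM in WT and at 42.0, 50.2, and 59.9 CPM in *Lztr1* R409C/+ mice. WT replicate 3 lay above the first 2 mutant mice, so the groups overlapped. This gave a log2 fold change of 0.28 (SE 0.20, 95% interval -0.14 to 0.71, adjusted p = 0.732). It was 0.14 without WT replicate 2, 0.15 without *Lztr1* R409C/+ replicate 3, and 0.48 (unadjusted p = 0.0260) without WT replicate 3. Without both libraries that stood apart, it was 0.60 (unadjusted p = 0.00512). *Pcolce* (ENSMUSG00000029718.15, chr5:137603365-137612046), which enhances the cleavage of procollagen by BMP1, was at 25.4, 23.8, and 25.9 CPM in WT and at 21.0, 29.8, and 40.6 CPM in *Lztr1* R409C/+ mice. The WT mice were nearly alike, whereas the mutant mice ranged from below to far above them. The SD was 1.07 CPM in WT and 9.80 CPM in *Lztr1* R409C/+ mice, and the log2 fold change was 0.28 (SE 0.21, 95% interval -0.18 to 0.74, adjusted p = 0.754). It was 0.022 without *Lztr1* R409C/+ replicate 3, 0.48 (unadjusted p = 0.0198) without *Lztr1* R409C/+ replicate 1, where the remaining mice did not overlap, and 0.51 (unadjusted p = 0.0215) without both libraries that stood apart. *Pcolce* shares 112 bases of exon with *Fbxo24* on the same strand, which had 0 to 25 counts per mouse.

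Of the 12 genes for procollagen proteinases and collagen-modifying enzymes, to which *Pcolce* relates by function, 7 were above and 5 below 0, with a median log2 fold change of 0.10. This median was -0.054 without *Lztr1* R409C/+ replicate 3 and 0.30 without *Lztr1* R409C/+ replicate 1. *P4ha1*, a prolyl hydroxylase subunit, had a log2 fold change of -0.41 and was the only one with an unadjusted p under 0.05 (unadjusted p = 0.0464, adjusted p = 0.569, where 2.86% of all tested genes were lower and 5.77% higher). *Bmp1*, the proteinase that PCOLCE enhances, was at 24.5, 21.5, and 24.4 CPM in WT and at 26.8, 27.9, and 35.5 CPM in *Lztr1* R409C/+ mice. Its groups did not overlap, and its log2 fold change was 0.36 (unadjusted p = 0.0502, adjusted p = 0.578).

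*Dpep1* (ENSMUSG00000019278.6, chr8:123908418-123928560), a membrane dipeptidase that cleaves leukotriene D4, was at 33.5, 29.5, and 29.7 CPM in WT and at 24.7, 26.5, and 36.3 CPM in *Lztr1* R409C/+ mice. The mutant mice held both the lowest values and the highest. Its log2 fold change was -0.084 (SE 0.18, 95% interval -0.47 to 0.30, adjusted p = 0.928), and it was 0.016 without *Lztr1* R409C/+ replicate 1 and -0.27 without *Lztr1* R409C/+ replicate 3. Among 6 tested genes for the other dipeptidases and leukotriene enzymes, 4 were above and 2 below 0. At an unadjusted p under 0.05, 3 were higher (5.77% of all) and 1 lower (2.86% of all). The median log2 fold change was 0.65, and it was 0.39 without WT replicate 2. *Alox5ap*, which presents arachidonic acid to 5-lipoxygenase, was at 2.86, 2.33, and 3.39 CPM in WT and at 7.31, 5.69, and 5.68 CPM in *Lztr1* R409C/+ mice, a log2 fold change of 1.12 (unadjusted p = 4.75e-04, adjusted p = 0.215). *Alox5*, which encodes that lipoxygenase, was lower in every mutant mouse, with a log2 fold change of -0.47 (unadjusted p = 0.0151, adjusted p = 0.470). Leukocytes express both genes.

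The cytoskeletal genes were the most abundant of the 10. *Gsn* (ENSMUSG00000026879.15, chr2:35145967-35197917), whose product severs actin filaments, was at 649.7, 608, and 804 CPM in WT and at 453, 679.6, and 909.5 CPM in *Lztr1* R409C/+ mice. The lowest and the highest mouse were both mutant, with all WT mice between them. Between the genotypes the log2 fold change was -0.013 (SE 0.24, 95% interval -0.53 to 0.50, adjusted p = 0.991), and it was 0.20 without *Lztr1* R409C/+ replicate 1 and -0.28 without *Lztr1* R409C/+ replicate 3. Without both libraries that stood apart, it was 0.34 (unadjusted p = 0.0728), and the remaining mice did not overlap. *Vim* (ENSMUSG00000026728.10, chr2:13578738-13587639), the intermediate filament of mesenchymal cells, was at 175, 181, and 203 CPM in WT and at 207, 229, and 208 CPM in *Lztr1* R409C/+ mice. The groups did not overlap, although the step between WT replicate 3 and *Lztr1* R409C/+ replicate 1 was small. The means were 186 ± 14.5 and 215 ± 12.1 CPM (SD, n = 3), and the log2 fold change was 0.21 (SE 0.15, 95% interval -0.12 to 0.53, adjusted p = 0.746). Of the 11 related actin-severing and filament genes, 5 were above and 6 below 0, with a median log2 fold change of -0.15. The median was -0.063 without *Lztr1* R409C/+ replicate 1, -0.062 without *Lztr1* R409C/+ replicate 2, -0.085 without WT replicate 3, and -0.059 with a correction for gene length. Without both libraries that stood apart, this median was -0.015. With library size only it was -0.29, where the median over all tested genes was -0.14. *Capg*, a gelsolin relative that macrophages use to cap actin filaments, was higher in every mutant mouse at a log2 fold change of 0.63 (unadjusted p = 0.0196, adjusted p = 0.495), and the relative *Flii* had -0.27 (unadjusted p = 0.172).

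**Figure D3:**
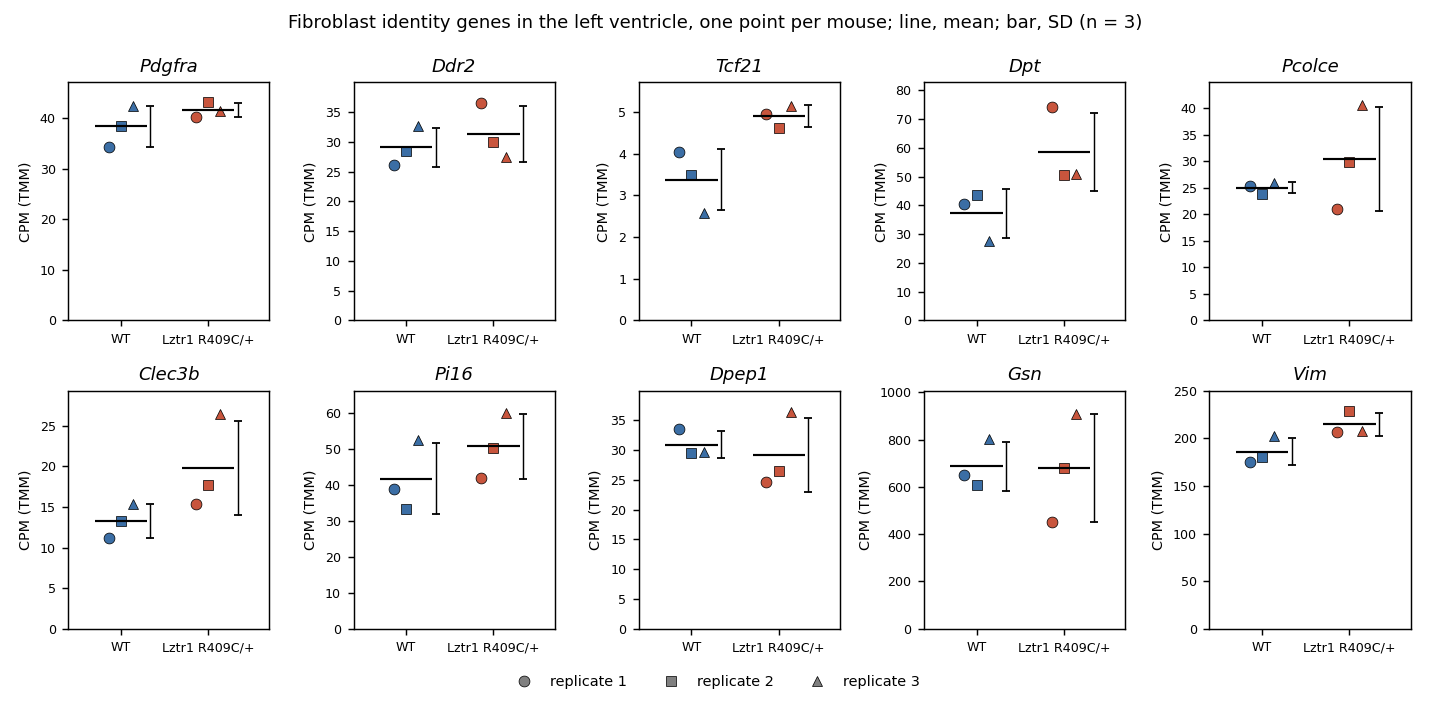
Each panel gives the CPM of one gene on an axis from 0, with a point per mouse shaped by replicate number, a line at the mean, and a bar for the SD (n = 3 per genotype). *Tcf21*, *Dpt*, *Clec3b*, and *Vim* show no overlap between WT and *Lztr1* R409C/+ mice, and *Gsn*, *Pcolce*, and *Dpep1* show mutant mice on both sides of the WT mice.

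Across the mice, the 10 genes did not move as a single block. *Lztr1* R409C/+ replicate 3 had the highest value of the 6 mice for 6 genes, namely *Tcf21*, *Pcolce*, *Clec3b*, *Pi16*, *Dpep1*, and *Gsn*. Replicate 1 was highest for *Ddr2* and *Dpt*, replicate 2 was highest for *Pdgfra* and *Vim*, and no WT mouse was highest for any gene. The lowest value came from WT replicate 1 in 4 genes, from WT replicate 3 in *Tcf21* and *Dpt*, and from WT replicate 2 in *Pi16*. It came from *Lztr1* R409C/+ replicate 1 in *Pcolce*, *Dpep1*, and *Gsn*. The number of genes above their own mean over the 6 mice was 2, 0, and 5 among the WT mice. Among the mutant mice, it was 5, 8, and 9. WT replicate 3 and *Lztr1* R409C/+ replicate 1 were thus each above the mean for some genes and below it for others, with *Dpt* and *Gsn* on opposite sides in both. On the log2 CPM scale, centred on each gene's mean, *Dpt* was at -0.74 and *Gsn* at 0.27 in WT replicate 3, and *Dpt* was at 0.70 and *Gsn* at -0.56 in *Lztr1* R409C/+ replicate 1. The sum over the 10 genes, of which *Gsn* makes up the largest share, was 1039, 1002, and 1235 CPM in WT and 919, 1161, and 1406 CPM in *Lztr1* R409C/+ mice, with overlap between the groups. The mean of the centred log2 values, in which each gene has the same weight, was -0.15, -0.16, and -0.079 in WT mice. In *Lztr1* R409C/+ mice this mean was -0.0023, 0.094, and 0.29, so the groups did not overlap by this measure, which was not tested. The genes averaged were chosen with earlier results of these data known.

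**Figure D4:**
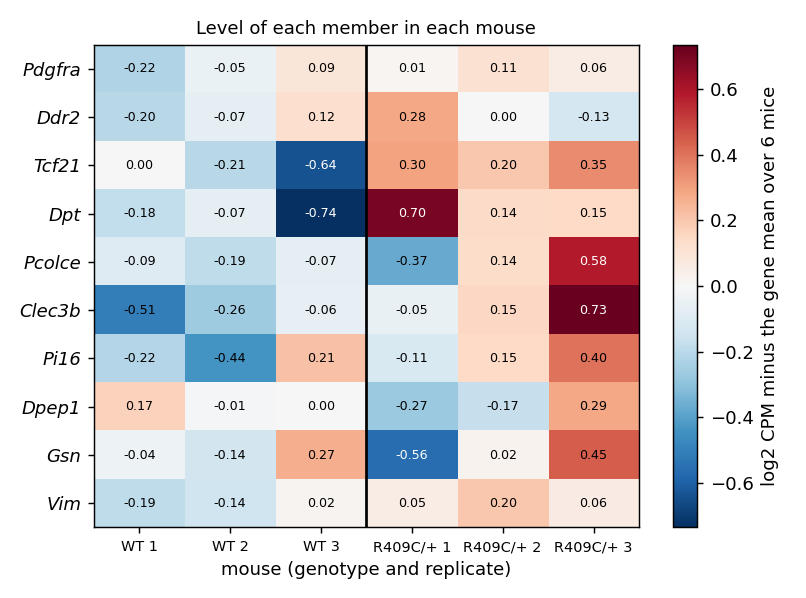
Cells give the log2 CPM of each gene in each mouse minus that gene's mean over the 6 mice, from blue (below the mean) to red (above it), with WT mice on the left of the line. *Lztr1* R409C/+ replicate 3 is above the mean for 9 of the 10 genes, and *Dpt* and *Gsn* have opposite signs in WT replicate 3 and in *Lztr1* R409C/+ replicate 1.

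A wider list held 22 other genes known to be high in cardiac fibroblasts. Of these, 17 were above and 5 below 0, where 51.4% of all tested genes were above. At an unadjusted p under 0.05, 5 were higher (5.77% of all) and 0 lower (2.86% of all), and the median log2 fold change was 0.28, against 0.24 for the 10 genes. The list summed to 1442 to 1752 CPM in WT and 1439 to 1912 CPM in *Lztr1* R409C/+ mice, with overlap. The collagen genes *Col1a1*, *Col1a2*, and *Col3a1*, named after their values were seen, had -0.25, -0.073, and -0.030. *Dcn*, the most abundant gene of the list in WT mice, likewise named afterwards, had 0.16. *Lum*, a collagen-binding proteoglycan, was at 44.4, 48.3, and 42.0 CPM in WT and at 76.7, 74.8, and 54.0 CPM in *Lztr1* R409C/+ mice. Its groups did not overlap, and the log2 fold change was 0.61 (unadjusted p = 0.00370, adjusted p = 0.305). *Mfap4*, an elastic fibre protein, was at 5.74, 6.74, and 2.99 CPM in WT and at 7.06, 12.3, and 13.5 CPM in *Lztr1* R409C/+ mice, a log2 fold change of 1.09 (unadjusted p = 0.00426, adjusted p = 0.317). Of 15 tested genes of activated fibroblasts and myofibroblasts, 11 were above and 4 below 0, 6 were higher (5.77% of all) and 0 lower (2.86% of all) at an unadjusted p under 0.05, and the median was 0.41. This median was 0.15 without *Lztr1* R409C/+ replicate 2. In sum, these genes were at 247 to 272 CPM in WT and 200 to 342 CPM in *Lztr1* R409C/+ mice, with overlap. *Ccn2* and *Acta2*, named after their values were seen as the most abundant genes of the list in WT mice, had -0.41 and -0.13. *Comp*, a matrix protein induced in fibrosis, was at 1.36, 0.886, and 1.84 CPM in WT and at 3.12, 2.03, and 6.51 CPM in *Lztr1* R409C/+ mice, a log2 fold change of 1.51 (unadjusted p = 0.00378, adjusted p = 0.307). *Cilp*, a secreted matrix protein, had 0.92 (unadjusted p = 0.0122, adjusted p = 0.454), with *Lztr1* R409C/+ replicate 1 within the WT range. No gene of either list passed the adjusted threshold.

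Marker lists of other cell types were read beside these genes, and their part in the results was not tested. For all 9 macrophage markers, the lowest mutant mouse lay above the highest WT mouse (8.3% of all tested genes), with a median log2 fold change of 1.15, and they summed to 212 to 239 CPM in WT and 356 to 464 CPM in *Lztr1* R409C/+ mice. The complement genes *C1qb* and *C1qc* passed the adjusted threshold, with log2 fold changes of 1.15 and 1.19 (adjusted p = 0.0241 for both). Both remained past the threshold in 8 of 17 alternatives and lost it in each fit without 1 mouse (adjusted p = 0.0567 to 0.192), without both libraries that stood apart, with a replicate block, and with library size only. Over the 17 alternatives, the log2 fold change was 1.01 to 1.23 in *C1qb* and 1.04 to 1.24 in *C1qc*, and the adjusted p was 2.41e-07 to 0.447 and 3.92e-08 to 0.379. Without both libraries that stood apart, the macrophage median was 0.68. Epicardial mesothelial markers were low, at 7.24 to 12.5 CPM in WT and 8.84 to 15.0 CPM in *Lztr1* R409C/+ mice in sum, and 4 of 7 tested genes were above and 3 below 0, with a median log2 fold change of 1.58. Leaving out 1 mouse moved this median widely, to 0.66 without WT replicate 1, 0.69 without WT replicate 2, 0.57 without *Lztr1* R409C/+ replicate 3, and 2.26 without WT replicate 3. *Wt1* and *Gpm6a*, named after their values were seen as the most abundant genes of the list, had -0.18 and -0.25. *Upk3b* was at 0.166, 0.280, and 0.718 CPM in WT and at 1.01, 1.86, and 2.40 CPM in *Lztr1* R409C/+ mice, a log2 fold change of 2.15 (unadjusted p = 0.00177, adjusted p = 0.251). *Lrrn4* had 2.37 (unadjusted p = 0.00458, adjusted p = 0.326).

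The remaining cell types of the ventricle wall overlapped between the genotypes in their summed levels. Cardiomyocyte markers summed to 39523 to 43728 CPM in WT and 30241 to 42594 CPM in *Lztr1* R409C/+ mice, with a median log2 fold change of -0.14. This median was -0.086 without WT replicate 2 and -0.094 without *Lztr1* R409C/+ replicate 1. It was -0.30 with library size only, where the median over all tested genes was -0.14. The smallest p-values were those of *Ryr2*, the calcium release channel, at -0.33 (unadjusted p = 0.0987), and *Myl2*, the ventricular light chain, at 0.51 (unadjusted p = 0.109). Endothelial markers summed to 699 to 897 CPM and 627 to 953 CPM, with a median of 0.056, led by *Emcn* at 0.40 (unadjusted p = 0.0311) and *Egfl7* at 0.29 (unadjusted p = 0.109). Markers of pericytes and smooth muscle cells summed to 632 to 747 CPM and 563 to 716 CPM, with a median of 0.055. Of these 8 markers, 4 were above 0 (51.4% of all tested genes) and 4 below. At an unadjusted p under 0.05, 0 were higher (5.77% of all) and 2 lower (2.86% of all). The smooth muscle genes *Myh11* at -0.71 (unadjusted p = 0.0104) and *Tagln* at -0.65 (unadjusted p = 0.0152) were lower in every mutant mouse, and their adjusted p-values were 0.438 and 0.470. The endothelial median was -0.013 without WT replicate 3 and -0.062 without *Lztr1* R409C/+ replicate 3. It was 0.11 without WT replicate 2 and 0.13 without *Lztr1* R409C/+ replicate 1. The pericyte and smooth muscle median was -0.012 without WT replicate 3 and -0.042 without *Lztr1* R409C/+ replicate 2. It was 0.14 without WT replicate 2 and 0.11 without *Lztr1* R409C/+ replicate 1.

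**Figure D5:**
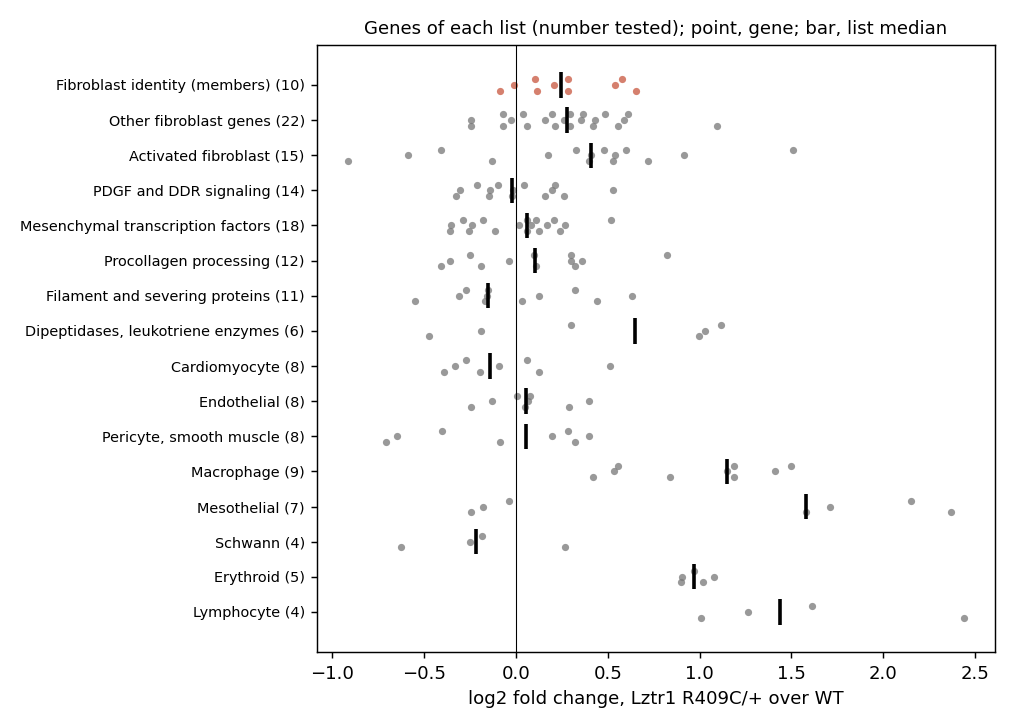
Each point is the log2 fold change of *Lztr1* R409C/+ over WT for a gene of the list on the left, with the number of tested genes in parentheses and a bar at the list median. The 10 fibroblast identity genes, in red, lie between -0.084 and 0.65 with a median of 0.24, and the 9 macrophage markers all lie above 0 with a median of 1.15.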

How the data were processed

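Per the labels and the description of the study, reads were trimmed with Trim Galore and aligned to GRCm39 with HISAT2, rRNA was excluded, and StringTie was used. The authors deposited whole-number counts per gene, not normalized, for 6 libraries, each from a separate mouse. The annotation release and the strand setting are not given in the sources used here. The kit named does not mark strand, so reads of a gene and of its antisense partner cannot be told apart. The antisense counts given above therefore do not show how much such genes add. The lncRNA Gm54102, which shares 586 bases of exon with *Vim* on the opposite strand, had no counts listed. Another deposited table holds log2 fold changes, mean log2 CPM, p-values, and FDR of the authors' own comparison, of which the gene names alone were used.

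The genotypes were compared with edgeR 4.0.16 under R 4.3.3 (filterByExpr, TMM, robust quasi-likelihood test, 2-sided) with Benjamini-Hochberg adjustment over 17212 genes at 0.05. The common biological coefficient of variation was 26.1%. Every p and adjusted p is from this fit unless another test is named. The exact permutation test of 3 mice against 3 was 2-sided, with a smallest p of 0.1. Positions, exon lengths, and upstream windows came from GENCODE M39, which held 56236 of the 56923 identifiers. The steps were tested on simulated data. The genes and lists were chosen with earlier results of these data known. Named were the 10 genes, *Lztr1*, and, of each list, the 2 tested genes with the smallest unadjusted p and any gene past the adjusted threshold. A few further list genes are marked as named after their values were seen. The lists had no test of their own.

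The alternatives were DESeq2 size factors, library size only, upper quartile scaling, removal of mitochondrially encoded genes, no filter (a count in at least 1 mouse), at least 10 counts in every mouse, DESeq2 1.42.0, edgeR's exact test, a replicate block, a loess correction for gene length, and omission of each mouse. Omission of both WT replicate 3 and *Lztr1* R409C/+ replicate 1 was added after seeing the data. No batch or date is given.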

Additional observations from a re-analysis of the deposited data

How the results depend on the processing

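None of the 10 genes passed the adjusted threshold in any of the 17 alternatives. Over them, the log2 fold change ranged from 0.27 to 0.78 in *Dpt*, 0.31 to 0.84 in *Clec3b*, and 0.37 to 0.69 in *Tcf21*. An unadjusted p under 0.05 was met by *Dpt* in 14, *Clec3b* in 14, and *Tcf21* in 8 of the 17. Without overlap between the groups were *Dpt* and *Tcf21* in 17, *Vim* in 14, and *Clec3b* in 10. The sign turned in *Pdgfra* (-0.060) and *Ddr2* (-0.10) with library size only. In *Gsn*, it turned with upper quartile scaling (0.027), with the length correction (0.045), without WT replicate 3 (0.11), without *Lztr1* R409C/+ replicate 1 (0.20), and without both (0.34). It turned without *Lztr1* R409C/+ replicate 1 in *Ddr2* and *Dpep1*. Leaving out 1 mouse gave -0.027 to 0.19 in *Ddr2*, -0.27 to 0.016 in *Dpep1*, -0.28 to 0.20 in *Gsn*, 0.041 to 0.19 in *Pdgfra*, 0.022 to 0.48 in *Pcolce*, and 0.14 to 0.48 in *Pi16*.

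With library size only, the median over all tested genes was -0.14 and over the 10 genes 0.063, a difference of 0.21 against 0.23 with TMM, and 8 of 10 genes were above the median of all genes under both. Relative to that median, *Pdgfra* was at 0.084 and *Ddr2* at 0.044. With library size only, 0 of the 10 had an unadjusted p under 0.05 and 2 did not overlap, where 2.25% and 3.6% of all tested genes were higher by these measures. Also 2 did not overlap without a filter (5.9% of all higher) or with the length correction (7.7%), and 8 without both libraries that stood apart (21.2%). Leaving out 1 mouse gave 1 to 3 genes at an unadjusted p under 0.05 (4.8% to 5.72% of all were higher), with 1 when *Lztr1* R409C/+ replicate 3 was left out, and 3 to 6 without overlap, where 12.1% to 14.1% of all were higher. The count without *Lztr1* R409C/+ replicate 3 includes *Dpep1*, which was then lower without overlap. Leaving out 1 mouse moved the median over the 10 genes to 0.16 to 0.31. The 7 genes called among all tested became 21 with library size only, 20 without a filter, 158 with DESeq2's Wald test, 140 with the exact test, 2 to 4 without 1 mouse, and 1, a lower gene, without both libraries. The cause of these differences was not tested.

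Some medians of the fibroblast and pathway lists moved by more than 1 SD of the list score between mice. With library size only, they were -0.11 for the mesenchymal factors, 0.43 for the leukotriene enzymes, and -0.19 for the PDGF and DDR genes. The median over all tested genes moved as well, from 0.012 with TMM to -0.14. Without both libraries, they were 0.48 for the other fibroblast genes and 0.28 for the procollagen genes. Leaving out 1 mouse gave 0.15 to 0.56 for the activated fibroblast genes, -0.092 to 0.047 for the mesenchymal factors, 0.39 to 0.69 for the leukotriene enzymes, and -0.054 to 0.30 for the procollagen genes. Among the cell type lists, library size only gave -0.30 for cardiomyocyte and 1.01 for macrophage markers, and leaving out 1 mouse gave 0.97 to 1.19 for macrophage, 0.57 to 2.26 for mesothelial, -0.47 to 0.10 for Schwann cell, and 1.104 to 1.60 for lymphocyte markers. Mesothelial markers had 0.85 without a filter, 0.70 with at least 10 counts in every mouse, and 2.47 without both libraries, and lymphocyte markers 1.59, 1.15, and 0.83.

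Deviations of mice with the same replicate number correlated at 0.000648, 0.0151, and -0.0525 (Pearson's r across genes), so the numbers were not taken to pair the mice. With a replicate block, 1 gene, a lower one, was called among all tested and 0 of the 10, 2 of the 10 had an unadjusted p under 0.05 (5.25% of all were higher), and their median was 0.22. With 3 mice per genotype, differences as small as those of *Pdgfra* or *Ddr2* cannot be resolved.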

Other observations

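Markers of blood cells were read although the hearts were perfused. All 5 erythroid genes were above 0, with a median log2 fold change of 0.97 (0.012 over all tested genes), and they summed to 579 to 1479 CPM in WT and 1042 to 2625 CPM in *Lztr1* R409C/+ mice. This median was 1.55 without WT replicate 3, 0.68 without *Lztr1* R409C/+ replicate 1, and 0.72 without WT replicate 1. It was 0.64 with library size only, where the median over all tested genes was -0.14. *Hba-a1* had 1.02 (unadjusted p = 0.00656, adjusted p = 0.372) and *Hba-a2* 0.90 (unadjusted p = 0.0125, adjusted p = 0.455), and reads of these near-identical globin genes may have been divided between them. The 4 tested T and B cell genes had a median of 1.44 at very low levels, 0.486 to 1.01 CPM in sum in WT and 1.71 to 2.56 CPM in *Lztr1* R409C/+ mice. Among them, *Cd79a* had 5 to 18 counts in WT and 28 to 35 counts in *Lztr1* R409C/+ mice, a log2 fold change of 1.61 (unadjusted p = 0.0420, adjusted p = 0.564), and *Ms4a1* had 1.27 (unadjusted p = 0.0554). The 4 tested Schwann cell genes had a median of -0.22, which turned to 0.10 without WT replicate 1 and was -0.47 without *Lztr1* R409C/+ replicate 3, with *Kcna1* at -0.63 (unadjusted p = 0.144) and *Mbp* at 0.27 (unadjusted p = 0.457). All p-values are from edgeR's quasi-likelihood test.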
